A study of Mus musculus with 18 samples.

Results

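The erythroid and reticulocyte genes are a list of 40 genes that red cell precursors and reticulocytes use to make hemoglobin, build the red cell membrane and shed their organelles. A gene was taken as a member where a non-control probe of the array carried its current or older symbol. By this rule 38 of the 40 genes were found, of 21210 named genes on the array, and expression of Hbb-b2 and Trim58 is not analysed here. The 38 genes had 68 probes, 63 of them past the filter on dim probes, and all 38 entered the fit. The probe with the highest mean stood for its gene. RNA was measured in whole blood of 18 male C57BL/6N mice, 8 to 12 weeks old per the labels, with 1 Agilent 1-colour array per mouse. Of these, 7 mice were sham treated (0 Gy), 5 received 2 Gy and 6 received 8 Gy of gamma radiation from a cesium source, and heart blood was taken 6 hours after exposure. RNA was purified with the RiboPure kit for 15 mice and with PAXgene for 3, namely 0 Gy replicates 6 and 7 and 2 Gy replicate 5. Globin RNA was removed from all 18 samples before labelling, so the globin values give what was left after removal and are read apart. Whole blood holds red cells, platelets and white cells together, so a lower or higher number of cells of a type and a change in RNA per cell cannot be told apart.

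Erythroid precursors commit under GATA1, TAL1 and KLF1, which switch on the genes of heme synthesis, the globins and the membrane skeleton. The cell then expels its nucleus and enters the blood as a reticulocyte, which still holds RNA and loses it, with its mitochondria, as it matures. Reticulocytes are therefore a source of RNA of these genes in blood, while GATA1, TAL1 and NFE2 also act in megakaryocytes, the precursors of platelets. Which cells the RNA came from was not measured here.

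The start regions of 4 members are shown because they hold, or lack, the sequence that GATA factors bind, in genes the results below turn on. Each runs from 250 bases before to 50 bases after the annotated start, is taken from RefSeq on GRCm38.p6 and is written along the gene's strand, which is the plus strand for all 4. Capitals mark a GATA site, which was searched on both strands as AGATAA or as AGATAG and, with the other first letter, as TGATAA or as TGATAG. Alas2 lies at chrX:150547167-150547466, Klf1 at chr8:84901732-84902031, the first window of Tal1 at chr4:115056176-115056475 and Prdx2 at chr8:84969372-84969671.
Alas2: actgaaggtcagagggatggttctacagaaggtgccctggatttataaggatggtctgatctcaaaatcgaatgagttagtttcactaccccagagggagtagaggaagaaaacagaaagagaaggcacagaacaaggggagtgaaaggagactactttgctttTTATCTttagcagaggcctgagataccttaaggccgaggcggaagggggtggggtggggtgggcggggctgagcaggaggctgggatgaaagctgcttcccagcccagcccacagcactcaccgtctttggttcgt
Klf1: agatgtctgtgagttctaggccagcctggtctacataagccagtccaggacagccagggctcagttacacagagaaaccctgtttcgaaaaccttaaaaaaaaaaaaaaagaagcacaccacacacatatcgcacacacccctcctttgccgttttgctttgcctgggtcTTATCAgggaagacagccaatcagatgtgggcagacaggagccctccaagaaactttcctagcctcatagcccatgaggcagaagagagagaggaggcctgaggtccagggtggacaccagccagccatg
Tal1: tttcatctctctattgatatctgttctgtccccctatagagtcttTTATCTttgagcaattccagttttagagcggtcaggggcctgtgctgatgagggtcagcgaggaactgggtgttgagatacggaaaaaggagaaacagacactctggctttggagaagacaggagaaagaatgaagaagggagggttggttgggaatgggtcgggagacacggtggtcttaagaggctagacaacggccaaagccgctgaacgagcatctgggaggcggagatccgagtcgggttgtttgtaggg
Prdx2: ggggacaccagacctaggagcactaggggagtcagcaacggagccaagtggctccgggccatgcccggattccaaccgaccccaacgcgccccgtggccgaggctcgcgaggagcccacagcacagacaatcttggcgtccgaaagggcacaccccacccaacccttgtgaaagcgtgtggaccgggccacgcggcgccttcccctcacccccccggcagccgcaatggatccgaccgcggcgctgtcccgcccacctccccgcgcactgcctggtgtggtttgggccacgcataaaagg
The site began 86 bases before the start in Alas2, 80 in Klf1 and 205 in Tal1, each as its reverse complement. Windows were at hand for 29 of the 40 genes, Trim58 with 1 GATA site among them, and 16 of these (55.2%) held a GATA site, against 33% of all 27025 genes with a window. The CACC-box letters CCNCNCCC, in the style bound by KLF factors, were found for 69% of the 29 genes and 51.9% of all genes, and TGANTCA, in the style bound by NFE2, for 6.9% against 8.97%. The composite of an E-box and a GATA site stood in the windows of Klf1 and Hemgn and in those of 0.736% of all genes. This composite contains GATA letters, so it overlaps the first motif. Prdx2, Tspan33, E2f2 and Mkrn1, which rose at 8 Gy (below), held no GATA site in their windows. Tal1, which also rose, held 1 in its first window and none in its second. Nfe2, which rose too, had no window. These matches describe letters only.

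Values are log2 of the processed signal minus the array's 75th percentile, so 0 is a signal as bright as that percentile, and values of different probes are not compared. Of the 38 probes, 34 were well above background on all 18 arrays and 37 on at least 17. The exception was Xk, with 3 of 7, 0 of 5 and 3 of 6 arrays at 0, 2 and 8 Gy, so no fold is given for it at 2 Gy. No probe of a member was saturated. The 75th percentile itself spanned 148 to 444 at 0 Gy, 49.2 to 198 at 2 Gy, and 61.1 to 247 at 8 Gy, so irradiated arrays were on the whole dimmer. The first principal component, with 29.0% of the variance, set 0 Gy replicate 4 and 2 Gy replicate 3 apart from the other arrays. Markers of platelets, neutrophils, monocytes, B cells and T cells were well above background at 0 Gy for most of each list. The p-values measure the spread between these mice and arrays.

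At 8 Gy, 37 of the 38 genes lay above 0 Gy, and 6 of them rose past the threshold: Prdx2, Tspan33, Tal1, Mkrn1, Nfe2 and E2f2. None fell. The 6 are 15.8% of the members, beside 7.25% of all 13670 genes tested that rose and 4.56% that fell (limma, Benjamini-Hochberg adjusted p under 0.05). The median difference of the 38 genes was 0.85 on the log2 scale, or 1.80-fold, beside 0.068 for all genes, of which 53.9% lay above 0. With the globins left out, 6 of 36 genes rose and the median was 0.83. At an unadjusted p under 0.05, 21 members were higher, beside 19.7% of all genes. The one gene below 0 Gy was Cpox, an enzyme of heme synthesis, at -0.13 ± 0.52 (SE). For no member did the 8 Gy arrays lie wholly above the 0 Gy arrays, which was the case for 0.885% of all genes. The 8 Gy arrays lay above the 0 Gy median on at least 5 of 6 arrays for 25 of the 38 genes, and on all 6 for 10. The share of all genes was not computed for these counts, so they are not read as particular to the members.

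The number of called members moved with single arrays. None was called when replicate 1 or 2 of 0 Gy or replicate 5 of 8 Gy was left out. In this order, 161, 209 and 286 of the 13670 genes rose in those fits. A single call was left when replicate 4, 6 or 7 was taken from the sham group, replicate 1 or 5 from the 2 Gy group, or replicate 2, 3, 4 or 6 from the 8 Gy group. That call is 2.63% of the members, while 217 to 607 of the 13670 genes rose. In most of these fits it was a smaller share than that of all genes. Taking replicate 2 from the 2 Gy group left 2 calls (5.26%), near the share of all genes, of which 733 rose. There were 7 calls in the absence of 2 Gy replicate 4, 8 in that of 0 Gy replicate 3, 11 in that of 2 Gy replicate 3, and 14 in that of either 0 Gy replicate 5 or 8 Gy replicate 1. The 14 are 36.8% of the members, beside 14.6% of all genes that rose in the fit lacking 0 Gy replicate 5 and 12.7% in the one lacking 8 Gy replicate 1. The shares of all genes were 8.60% where 7 members rose and 10.4% where 11 did. The median of the 38 genes stayed between 0.67 and 1.11 in these 18 fits, so the size of the shift moved less than the number of calls. On 0 Gy replicate 5 the B cell marker mean was the lowest of its dose (0.039, beside 1.86 to 2.87 elsewhere). Its neutrophil marker mean was the highest at 0 Gy. On 8 Gy replicate 1 the B cell mean was the highest of its dose (0.87, beside -2.04 to -0.73). Its neutrophil mean was the lowest at 8 Gy (2.26). How far this bears on the number of calls was not tested.

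**Figure D1:**
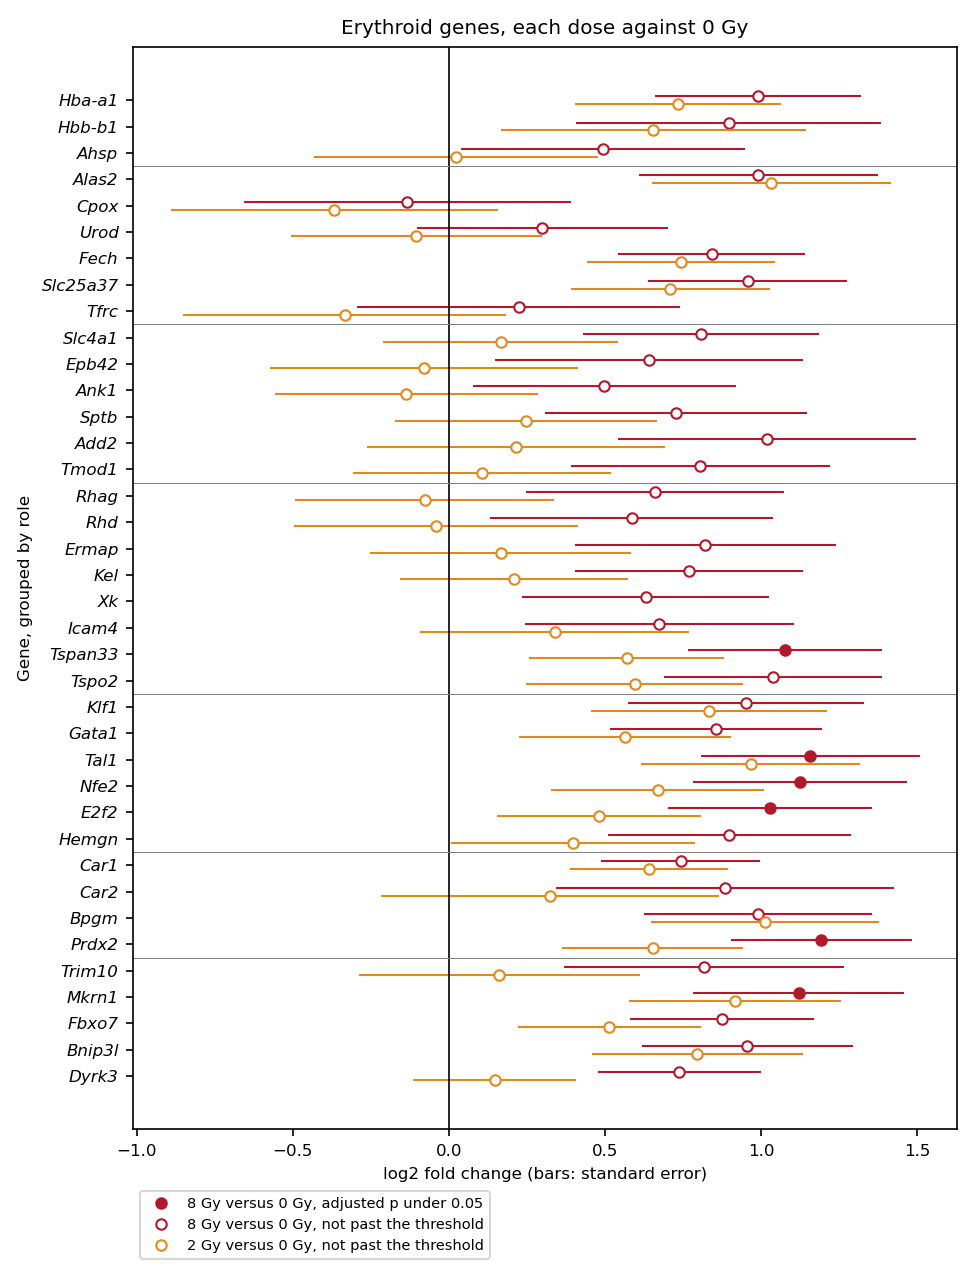
Log2 fold changes of the 38 erythroid genes at 8 Gy and at 2 Gy against 0 Gy, in order of role, from the fit with dose and kit (bars: standard error; filled points: adjusted p under 0.05). At 8 Gy 37 of 38 points lie right of 0 and 6 are filled; at 2 Gy none is filled, and Xk, dim on all 2 Gy arrays, is not drawn.

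Of the globins and their chaperone, 3 genes were measured and none passed the test at 8 Gy, with a median of 0.90. Hba-a1, the alpha globin, ran from 9.33 over a median of 11.02 to 11.20 in sham mice and from 10.89 over 11.49 to 12.43 after 8 Gy. Its values at 2 Gy were 10.67, 11.69, 11.30, 11.45 and 11.76, and its groups overlapped. The difference at 8 Gy was 0.99 ± 0.33 (adjusted p = 0.0574) and at 2 Gy 0.73 ± 0.33 (adjusted p = 0.225). Hbb-b1, a beta globin, lay in the range 7.99 to 11.38 in sham mice and 9.69 to 11.07 after 8 Gy, with 9.32, 11.26, 10.43, 10.23 and 11.90 at 2 Gy. No 8 Gy array exceeded the highest 0 Gy array, and the medians were 10.80 at 0 Gy and 10.77 at 8 Gy. The fit, which sets the kits apart, gave 0.90 ± 0.49 at 8 Gy (adjusted p = 0.210). Probes named Hbb-b1 in the files carry an accession that RefSeq gives to Hbb-bt, and some list Hbb-b2 as well, so the beta globin genes are uncertain here. Ahsp, which keeps free alpha globin from clumping, lay in the range 4.45 to 6.98 in sham mice and 5.03 to 6.92 in mice given 8 Gy. Its 2 Gy values were 5.08, 5.17, 4.45, 6.20 and 5.67. The highest 0 Gy value was that of replicate 3, and the difference at 8 Gy was 0.49 ± 0.46 (adjusted p = 0.469).

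Heme synthesis and iron uptake had 6 genes, none past the test at 8 Gy, with a median of 0.57 and 5 of 6 above 0. Alas2 makes the first precursor of heme in erythroid cells. Its 0 Gy arrays ran from 9.85 over 10.86 to 11.26 and its 8 Gy arrays from 10.59 over 11.52 to 13.003. Values at 2 Gy were 11.55, 11.81, 10.90, 12.53 and 11.79, so that 4 of 5 lay above every 0 Gy array. The difference was 0.99 ± 0.38 at 8 Gy (adjusted p = 0.0881) and 1.03 ± 0.38 at 2 Gy (adjusted p = 0.168). Slc25a37, the mitoferrin that brings iron into mitochondria, lay in the range 9.47 to 10.66 in sham mice and 10.41 to 11.84 in mice given 8 Gy. It read 10.70, 10.86, 9.83, 11.61 and 11.20 at 2 Gy, and its difference at 8 Gy was 0.96 ± 0.32 (adjusted p = 0.0571). Every 8 Gy array lay above the 0 Gy median of 10.40. Fech, which puts iron into heme, showed 0.84 ± 0.30 (adjusted p = 0.0706), from 8.57 to 9.79 at 0 Gy to 9.47 to 10.58 at 8 Gy. At 2 Gy it read 9.84, 10.16, 8.93, 10.53 and 9.81. The other members differed less: Urod, an enzyme of the same pathway, by 0.30 ± 0.40 and Tfrc, the transferrin receptor, by 0.22 ± 0.52. For both, and for Cpox, the highest 0 Gy array was replicate 3.

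The anion exchanger and membrane skeleton had 6 genes, all above 0 at 8 Gy with a median of 0.77 and none past the test. Slc4a1, the band 3 anion exchanger, ran from 7.56 over 8.41 to 9.67 in sham mice and from 8.38 over 8.95 to 9.81 after 8 Gy. The 2 Gy arrays read 7.99, 8.39, 7.70, 9.31 and 9.09. At 8 Gy 5 of 6 arrays were over the 0 Gy median but 1 was over the highest 0 Gy array, and the difference was 0.81 ± 0.38 (adjusted p = 0.147). Add2, beta adducin of the spectrin junctions, lay in the range -1.61 to 2.30 in sham mice and 0.78 to 2.00 after 8 Gy, with 0.45, 0.57, -0.17, 1.36 and 2.01 at 2 Gy. Its lowest 0 Gy array was replicate 4 and its difference at 8 Gy 1.02 ± 0.48 (adjusted p = 0.148). Its 3 probes differed between 0.37 and 1.02. The other 4 genes, Epb42, Ank1, Sptb and Tmod1, differed by 0.50 to 0.81.

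All 8 blood group and surface genes lay above 0 at 8 Gy, with a median of 0.72, and 1 rose, beside 7.25% of all genes. Tspan33, a tetraspanin of the erythroid surface (probe at chr6:29650626-29650685 on mm7), ran from 6.34 over 7.68 to 8.36 in sham mice and from 7.56 over 8.43 to 8.76 after 8 Gy. At 2 Gy its arrays read 7.88, 8.24, 6.83, 8.01 and 8.87. The 8 Gy difference was 1.08 ± 0.31 (adjusted p = 0.0404), and 3 of 6 arrays exceeded the highest 0 Gy array. Tspo2, an erythroid member of the translocator protein family, lay in the range 7.18 to 8.96 in sham mice and 8.25 to 9.78 in mice given 8 Gy. Its 2 Gy values were 8.59, 8.79, 7.64, 8.88 and 9.12. Its difference at 8 Gy was 1.04 ± 0.35 (adjusted p = 0.0581). The blood group genes proper, Rhag, Rhd, Ermap, Kel, Xk and Icam4, differed by 0.59 to 0.82 with adjusted p from 0.153 to 0.387.

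The transcription factors and cell cycle genes were the group with the most calls. All 6 lay above 0 at 8 Gy, the median was 0.99 and 3 rose, beside 7.25% of all genes. The calls were near the threshold and held in 9 (Tal1), 8 (Nfe2) and 7 (E2f2) of 33 other fits. Tal1, the partner of GATA1 on erythroid genes (probe at chr4:114448057-114448117 on mm7), ran from 2.53 over 3.62 to 4.66 at 0 Gy. It read 5.01, 5.15, 3.60, 5.20 and 4.30 at 2 Gy and ran from 4.09 over 4.88 to 5.45 at 8 Gy. Of the 6 arrays at 8 Gy, 5 exceeded the highest 0 Gy array, which was replicate 5. Without that array the 8 Gy arrays of Tal1 lay wholly above 0 Gy, as for no other of the 38 members. This was a smaller share than the 5.57% of all genes. Its difference was 1.16 ± 0.35 (adjusted p = 0.0441). Nfe2, a factor of globin and platelet genes (probe at chr15:103237506-103237565 on mm7), lay in the range 3.59 to 5.82 in sham mice and 5.07 to 5.98 in mice given 8 Gy. It read 5.04, 5.14, 4.43, 6.16 and 5.77 at 2 Gy, and rose by 1.13 ± 0.34 at 8 Gy (adjusted p = 0.0448). Its 8 Gy arrays were close together except replicate 1, the lowest. E2f2, a cell cycle factor of late erythroid cells (probe at chr4:135573084-135573143 on mm7), ran from 6.43 over 7.62 to 8.41 in sham mice and from 7.72 over 8.35 to 8.76 after 8 Gy. At 2 Gy it read 7.80, 8.27, 6.85, 8.12 and 8.71. All 6 arrays at 8 Gy lay above the 0 Gy median, and the difference was 1.03 ± 0.33 (adjusted p = 0.0498).

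The master factors did not pass the test. Gata1 ran from -0.25 over 1.44 to 1.73 in sham mice and from 0.97 over 1.87 to 2.25 after 8 Gy, with 1.56, 1.85, 0.59, 2.18 and 1.84 at 2 Gy. Its difference at 8 Gy was 0.86 ± 0.34 (adjusted p = 0.0949), and 4 of 6 arrays exceeded the highest 0 Gy array. Klf1, the erythroid factor of the CACC box, lay in the range -3.34 to -0.99 in sham mice and -2.51 to -0.52 in mice given 8 Gy. It read -1.996, -0.34, -2.07, -1.95 and -0.47 at 2 Gy, and its difference at 8 Gy was 0.95 ± 0.38 (adjusted p = 0.0962). Hemgn, a nuclear protein of blood precursors, differed by 0.90 ± 0.39 (adjusted p = 0.122).

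All 4 red cell enzymes lay above 0 at 8 Gy, with a median of 0.94, and 1 rose, beside 7.25% of all genes. Prdx2, the peroxiredoxin that clears peroxide in red cells (probe at chr8:83560279-83560338 on mm7), had the largest difference of the 38 genes. It ran from 8.59 over 9.32 to 10.37 in sham mice and from 9.66 over 10.28 to 10.84 after 8 Gy, and read 9.66, 10.07, 8.82, 9.92 and 10.85 at 2 Gy. Its difference was 1.19 ± 0.29 at 8 Gy (2.29-fold, adjusted p = 0.0229) and 0.65 ± 0.29 at 2 Gy (adjusted p = 0.222). Its 3 probes gave 1.19 to 1.25 at 8 Gy. The highest 0 Gy array was replicate 6, a PAXgene sample. Car1, a carbonic anhydrase, lay in the range -1.44 to 0.68 in sham mice, -0.38 to 0.91 after 2 Gy and -0.36 to 0.45 after 8 Gy. No 8 Gy array exceeded the highest 0 Gy array, and the difference, with the kit in the fit, was 0.74 ± 0.25 (adjusted p = 0.0616). Bpgm, which makes the compound that lowers the oxygen affinity of hemoglobin, differed by 0.99 ± 0.37 (adjusted p = 0.0765), and Car2 by 0.88 ± 0.54.

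The ubiquitin ligases, the clearance factor and the kinase had 5 measured genes, all above 0 at 8 Gy with a median of 0.88. Of these 1 rose, beside 7.25% of all genes. Mkrn1, a ubiquitin ligase abundant in reticulocytes (probe at chr6:39340202-39350143 on mm7), ran from 8.85 over 10.39 to 10.81 in sham mice and from 10.45 over 10.98 to 11.56 after 8 Gy. Its 2 Gy arrays read 10.97, 11.24, 9.68, 11.31 and 11.58. The difference was 1.12 ± 0.34 at 8 Gy (adjusted p = 0.0441) and 0.92 ± 0.34 at 2 Gy (adjusted p = 0.168). Fbxo7, a subunit of a ubiquitin ligase, lay in the range 2.98 to 5.11 in sham mice and 4.20 to 4.99 in mice given 8 Gy, with 4.26, 4.69, 3.47, 4.66 and 5.61 at 2 Gy. Its difference at 8 Gy was 0.88 ± 0.29 (adjusted p = 0.0580). Bnip3l, which marks mitochondria for removal as reticulocytes mature, differed by 0.96 ± 0.34 (adjusted p = 0.0683), Trim10 by 0.82 ± 0.45 and the kinase Dyrk3 by 0.74 ± 0.26. In 15 members with more than 1 probe past the filter, all 40 probes lay above 0 at 8 Gy.

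**Figure D2:**
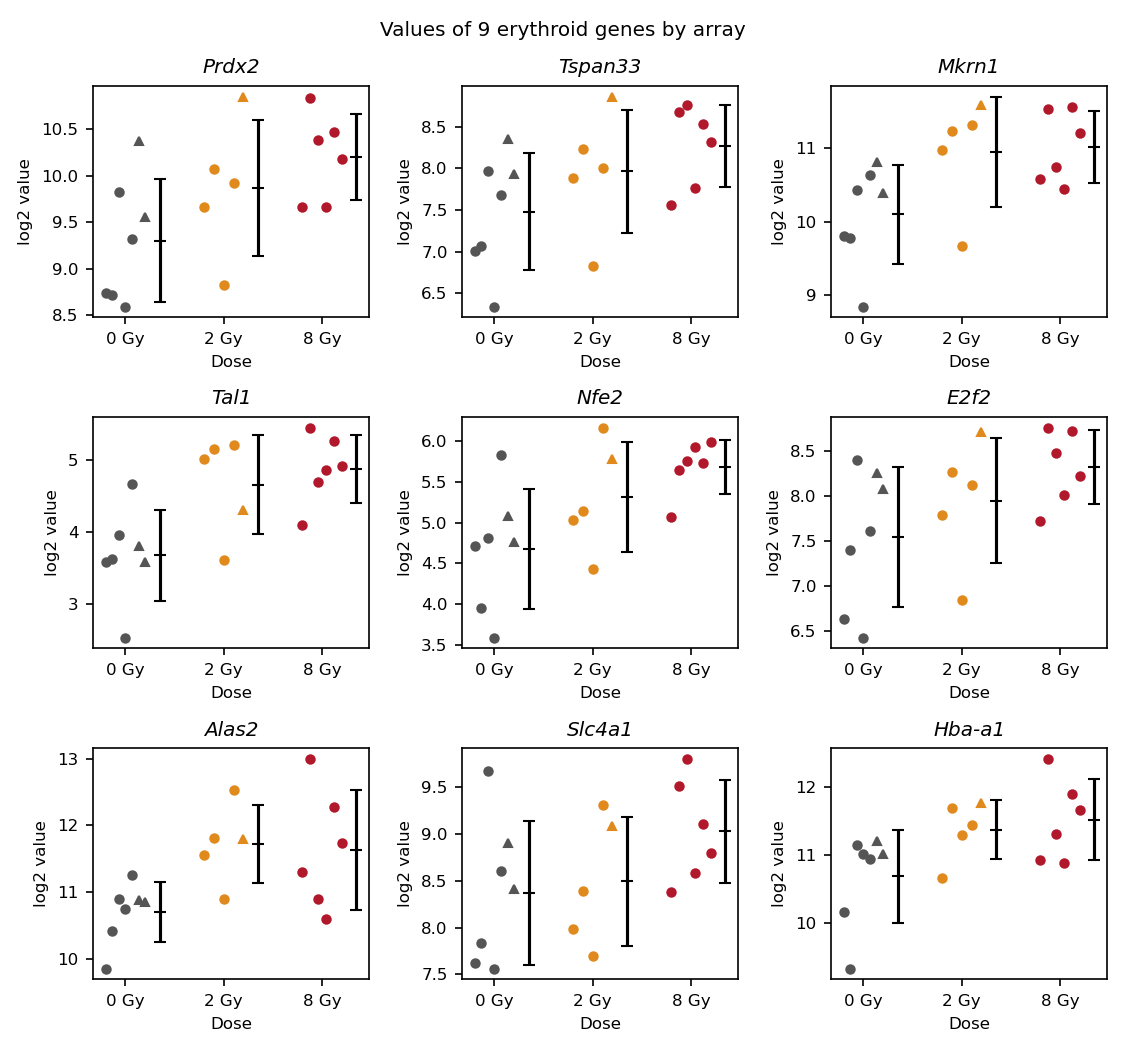
Log2 values (signal minus the array's 75th percentile) of the 6 genes that rose at 8 Gy and of Alas2, Slc4a1 and Hba-a1, 1 point per array by dose (circles: RiboPure; triangles: PAXgene; bars: mean and SD of the group). The groups overlap in every panel; for Tal1, 5 of 6 arrays at 8 Gy exceed the highest 0 Gy array.

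At 2 Gy no member passed the test, beside 0.0293% of all genes that rose, and 8 genes of all passed in either direction (limma). At an unadjusted p under 0.05, 11 members were higher, beside 11.0% of all genes. Of the 38 genes, Xk included, 31 lay above 0, beside 53.7% of all genes, and the median was 0.39 beside 0.049. The largest differences were those of Alas2 (1.03), Bpgm (1.01), Tal1 (0.97), Mkrn1 (0.92) and Klf1 (0.83). By role, the medians at 2 Gy were 0.65 for the globins and their chaperone, 0.65 for the enzymes, 0.62 for the transcription factors, 0.51 for the ligases and clearance genes, 0.30 for heme synthesis, 0.27 for surface genes and 0.14 for the membrane skeleton. In the skeleton, 4 of 6 genes were above 0 and none differed by more than 0.25, by the probe that stood for each gene. Their other probes did not all agree at 2 Gy. Those of Sptb ran from 0.037 to 0.66 and those of Tmod1 from -0.23 to 0.11. Those of Add2 ran from -0.18, on a probe dim on all 2 Gy arrays, to 0.30. Without 0 Gy replicate 5, Alas2 was the single member of 38 whose 2 Gy arrays lay wholly above 0 Gy, near the share of all genes (1.90%). Without 2 Gy replicate 3, 1 member passed the test, Bnip3l (1.14 ± 0.27, limma adjusted p = 0.0496), beside 0.819% of all genes that rose, and the median was 0.67. The median was also 0.67 without 0 Gy replicate 3 and 0.24 without 0 Gy replicate 1.

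Between 8 and 2 Gy no member and none of the 13670 genes passed the test, and the share of all genes called was 0% in both directions. At an unadjusted p under 0.05 only 1 member, Dyrk3, was higher at 8 Gy, beside 1.85% of all genes. Of the 38 genes 36 were above 0, beside 55.7% of all genes, with a median of 0.47, and the median of the skeleton genes was 0.67 (0.48 to 0.80). Both doses were set against the same 0 Gy arrays, so their values against 0 Gy are not independent.

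**Figure D3:**
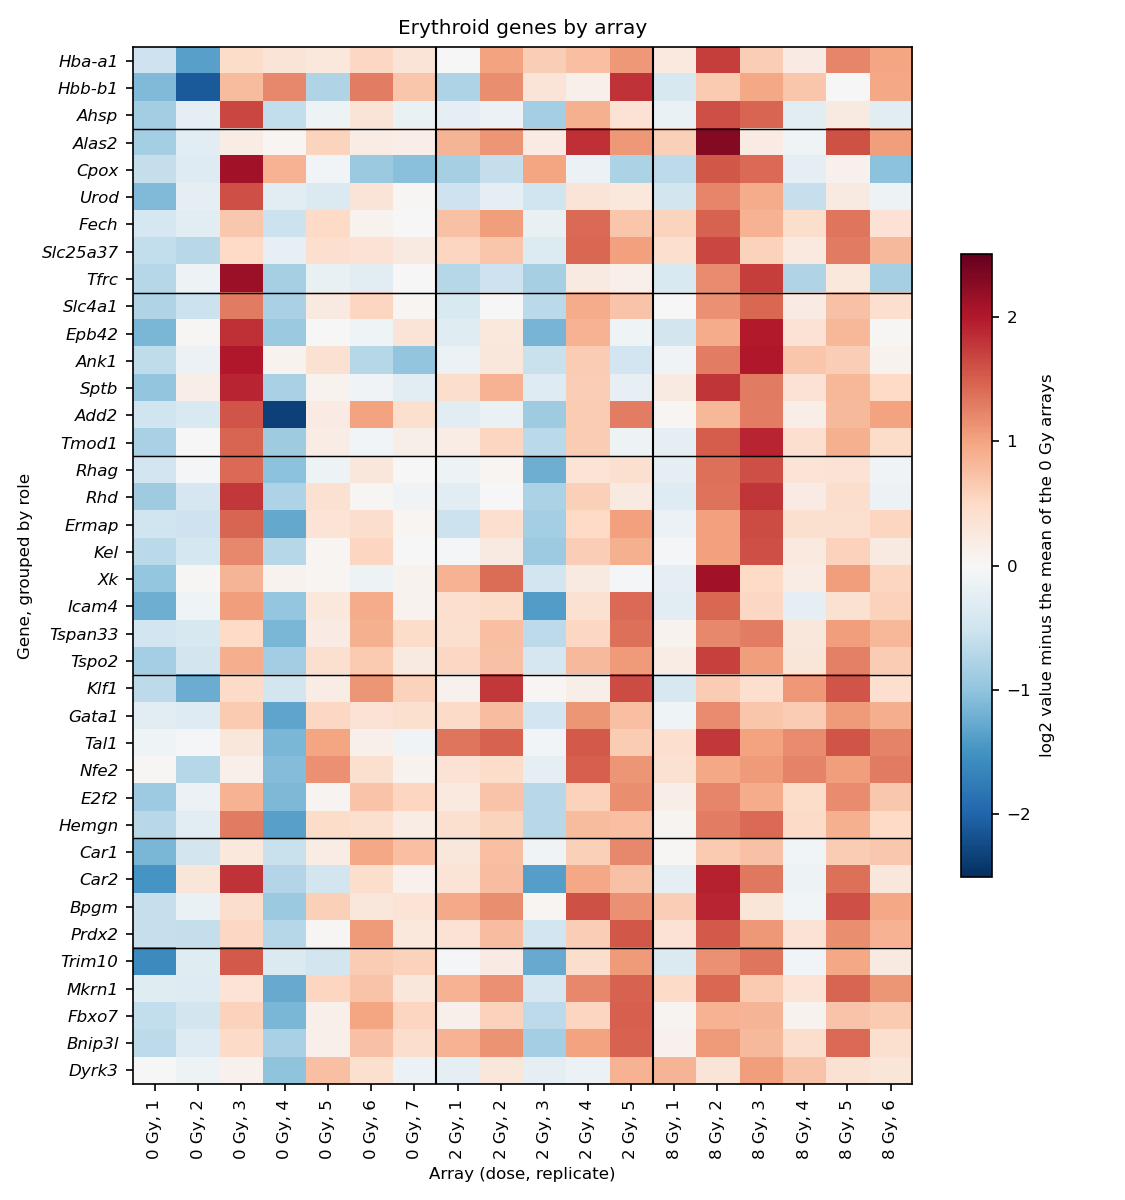
Log2 values of the 38 erythroid genes on each of the 18 arrays, minus the mean of the 0 Gy arrays of that gene (red: above; blue: below; vertical lines separate the doses, horizontal lines the roles). Replicate 3 at 0 Gy is red and replicates 1 and 4 are blue over most genes; replicate 3 at 2 Gy is blue beside the other 2 Gy arrays.

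The genes moved together from array to array within a dose, and on some arrays other lists moved with them. Their mean was 3.82, 4.16, 5.56, 3.84, 4.74, 4.94 and 4.68 on 0 Gy replicates 1 to 7. It was 4.70, 5.11, 4.03, 5.26 and 5.33 at 2 Gy, and 4.55, 5.85, 5.65, 4.81, 5.42 and 5.01 at 8 Gy. The mean of 0 Gy replicate 3 exceeded that of 4 of the 6 arrays at 8 Gy. Replicate 3 was the highest 0 Gy array for 24 of the 38 genes and replicate 4 the lowest for 21. For the skeleton genes replicate 3 was the highest in 6 of 6 and lay 1.76 above the median of the other 0 Gy arrays, for surface genes in 7 of 8 and for heme synthesis in 5 of 6, but for Hba-a1, Alas2, Tal1, Nfe2 and Prdx2 another 0 Gy array was highest. Without it the median at 8 Gy was 1.11, all 38 genes lay above 0 and 8 rose, beside 4.37% of all genes. At 2 Gy replicate 3 was the lowest array for 34 of 38 genes, with a median of -1.12 against the other 2 Gy arrays, and at 8 Gy replicate 1 was the lowest for 25. Platelet, T cell and proliferating precursor means were also lowest on 0 Gy replicate 4 (4.49, 1.37 and -0.40) and 2 Gy replicate 3 (5.06, 0.69 and -0.21). B cell and monocyte means were lowest on neither, and the neutrophil mean on the latter only. How much of the joint movement was array-wide was not tested. Without 0 Gy replicate 4 and 2 Gy replicate 3 together, the median at 8 Gy was 0.65, all 38 genes lay above 0 and 4 rose (10.5%), beside 6.77% of all genes.

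Of the 8 slides, 5 held arrays of 2 doses. On the slide shared by 8 Gy replicates 3 and 4 and 0 Gy replicate 1, all 38 genes were higher at 8 Gy. Their median was 1.34 beside 0.11 for all genes, of which 54.0% were higher. On the scan day shared by 8 Gy replicate 6 and 0 Gy replicate 5, the median was 0.28 and 31 of 38 were higher. All genes had a median of -0.0098 there, and 49.4% were higher. At 2 Gy the medians within the slides were 0.69 (34 of 38 higher), 0.42 (35 of 38) and -0.84 (3 of 38). In this order, 51.8%, 53.5% and 31.5% of all genes were higher. The medians of all genes were 0.036 on the first of these slides and 0.047 on the next. The last slide paired 2 Gy replicate 3 with 0 Gy replicate 5, and all genes had a median of -0.40 on it. On the slide shared by 3 arrays of 8 Gy and 1 of 2 Gy, the 8 Gy minus 2 Gy median was -0.035, with 18 of 38 higher. This was near all genes, with a median of -0.060 and 45.1% higher. With slide or scan day as a fixed block the median at 8 Gy was 0.86 and 0.85 and no member passed, nor did any gene of the 13670. With slide as a random block 1 member passed, beside 311 of the 13670 genes that rose.

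The size of the shift also moved with the scaling. The median at 8 Gy was 0.45 after quantile normalization, 0.35 after normexp background correction and quantile normalization, and 0.44 in the deposited series table, with 36, 35 and 36 of 38 genes above 0. No member passed the test in these 3, beside 3.78%, 4.16% and 3.76% of all genes that rose. Of all genes called at 8 Gy, 61.4% were higher in the scaling used here, against 45.6%, 43.1% and 45.2% in these 3. With the log2 75th percentile of the array as a further term the median was 0.43, 35 of 38 genes were above 0 and none passed. No gene of the 13670 passed in that fit. The brightness of the arrays moved with dose, and its part in the result was not tested beyond this fit. At 2 Gy the same 4 fits gave medians of 0.086, 0.062, 0.079 and 0.12, with 23, 24, 23 and 21 of 38 above 0. There the medians of heme synthesis and of the skeleton were below 0 in all 4 fits, that of the globins and Ahsp in the first 3, and that of the surface genes in the fit with brightness. At 8 Gy the median of every role stayed above 0 in these fits, from 0.030 for heme synthesis with the brightness term to 0.79 for the transcription factors after quantile normalization.

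**Figure D4:**
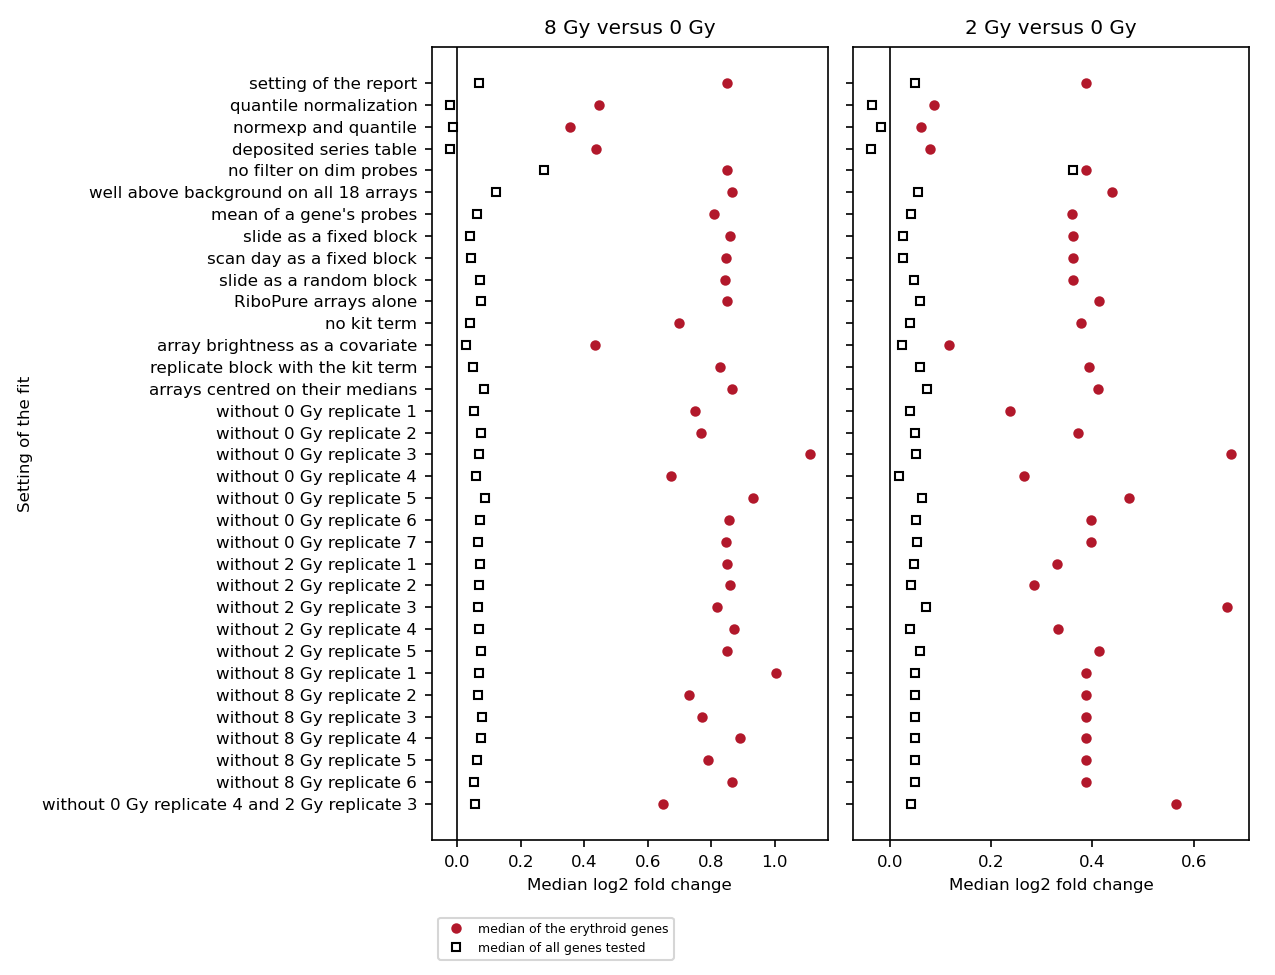
Median log2 fold change of the 38 erythroid genes (filled circles) and of all genes tested (open squares) under each setting of the fit, at 8 Gy (left) and at 2 Gy (right) against 0 Gy. At 8 Gy the erythroid median lies right of the median of all genes in every setting, between 0.35 and 1.11; at 2 Gy it comes down to 0.062.

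Between the kits, with dose in the fit, 1 member differed: Car1 was higher in PAXgene by 1.06 ± 0.29 (adjusted p = 0.0489), beside 2.41% of all genes that were higher. Fbxo7 followed with 1.16 ± 0.33 (adjusted p = 0.0619) and Prdx2 with 1.04 ± 0.33 (adjusted p = 0.0907). Of the 38 genes 32 were above 0 in PAXgene, beside 57.2% of all genes, with a median of 0.45, and Hbb-b1 had the largest difference, 1.46 ± 0.56 (adjusted p = 0.153). The Car1 call held in 11 of 29 other fits. No 8 Gy sample was purified with PAXgene. Among the RiboPure arrays alone the 8 Gy median was 0.85, 37 of 38 genes were above 0 and none passed the test. In that fit 150 of the 13670 genes rose.

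Other genes of the pathway, from lists that hold no member, were measured beside these. Of all genes tested, 7.25% rose and 4.56% fell at 8 Gy. The calls among the other membrane and skeleton genes and the other transcription and signalling genes lie near these shares. Of 39 other genes of reticulocyte maturation 10 rose at 8 Gy, none fell and the median was 0.79. They included Gabarapl1 of autophagy (0.79 ± 0.19, adjusted p = 0.0242), the amino acid transporter Slc38a5 (1.20 ± 0.31, adjusted p = 0.0283) and Ube2l6, a ubiquitin conjugating enzyme (1.12 ± 0.30, adjusted p = 0.0331). Of 23 other heme and iron genes 4 rose, with a median of 0.34: Hmox1, which breaks heme down (1.45 ± 0.29, adjusted p = 0.0117), the heme transporter Slc48a1 (0.97 ± 0.27), the ferritin chain Ftl1 (1.33 ± 0.39) and Isca1, an iron-sulfur assembly factor (1.08 ± 0.31). Hmox1 and Ftl1 serve heme breakdown and iron storage in many cells, not heme synthesis. Of 24 other membrane and skeleton genes 2 rose, the glucose transporter Slc2a1 (1.22 ± 0.34) and Epb41, band 4.1 (0.76 ± 0.22), with a median of 0.70, and Bsg stood just outside (0.91 ± 0.29, adjusted p = 0.05001). Of 24 other erythroid transcription and signalling genes 2 rose and 1 fell, with a median of 0.18. Those that rose were Epor, the erythropoietin receptor (1.13 ± 0.32), and Gfi1b (1.10 ± 0.34), and Bcl11a, which B cells also use, fell by 1.67 (SE 0.52). Of 4 embryonic and minor globin genes 1 rose, Hbq1a (1.19 ± 0.25, adjusted p = 0.0146). None of these genes passed the test at 2 Gy.

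Markers of some other blood cells moved as well, beside the 7.25% of all genes that rose and 4.56% that fell at 8 Gy. The single calls among T cell and monocyte markers lie near these shares. All 24 platelet and megakaryocyte markers lay above 0 at 8 Gy, with a median of 1.00, and 9 rose, among them Rgs18 (1.27 ± 0.34) and Gng11 (1.18 ± 0.33). All 24 were well above background in each dose group, and their mean spanned 4.49 to 6.22 at 0 Gy, 5.06 to 6.72 at 2 Gy, and 5.66 to 6.63 at 8 Gy. Tal1, Nfe2 and Gata1 act in this lineage too, and the part of platelet RNA in their values was not tested. Of 18 neutrophil markers 14 rose, with a median of 2.30, among them Trem1, Il1r2 and Mcemp1 (2.81 ± 0.48, 4.04 ± 0.76 and 1.99 ± 0.40). The median of their mean over arrays was 0.94 at 0 Gy and 3.77 at 8 Gy. Of 15 B cell markers 14 fell, with a median of -3.24, led by Fcer2a, Tnfrsf13c and Cd79b (-3.67 ± 0.55, -4.52 ± 0.72 and -3.59 ± 0.61), and their mean went from a median of 2.37 at 0 Gy to one of -1.41 at 8 Gy. Of 17 T cell markers 1 fell, Cd8b1 (-1.32 ± 0.33), with a median of -0.21, beside Cd8a (-1.09 ± 0.37) and Cd5 (-0.45 ± 0.25), which did not pass. Of 13 monocyte markers 1 rose, Fcgr4 (1.61 ± 0.36), with a median of -0.036, beside Spn (-0.72 ± 0.27), which did not pass. Of 19 markers of proliferating precursors 2 fell, Mcm5 (-0.78 ± 0.23) and Mcm3 (-0.82 ± 0.25), with a median of 0.22, and Tyms stood at 0.54 ± 0.21. No marker of these 6 lists passed the test at 2 Gy. Values are relative to the array, and how far the shift of other cells' RNA enters the erythroid values was not tested.

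**Figure D5:**
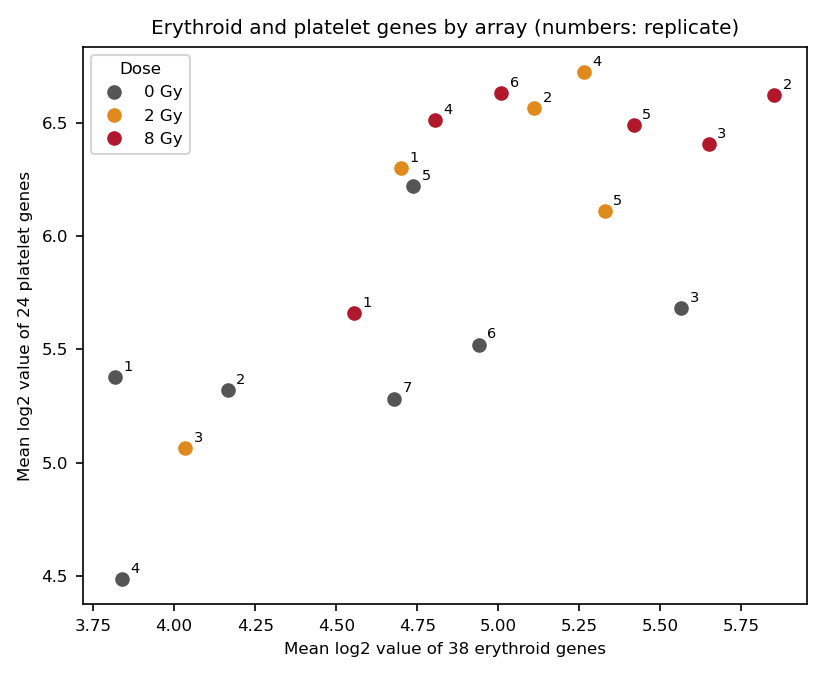
Mean log2 value of the 24 platelet and megakaryocyte markers against that of the 38 erythroid genes on each array, coloured by dose and numbered by replicate. Both means tend to be high at 8 Gy; 0 Gy replicate 3 is high for the erythroid genes (5.56) and within the 0 Gy range for the platelet genes (5.68), and 2 Gy replicate 3 is low for both (4.03 and 5.06).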

How the data were processed

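Each of the 18 arrays has a scanner file. Its processed signal is an intensity that, per the file headers, came from the authors' run of Agilent Feature Extraction 9.5.3.1, which subtracts background and corrects trends over the array. The deposited series table holds a normalized intensity on a linear scale, with equal column medians; the steps behind it are not given in the sources used here, and the submitters' processing notes name limma without a role. Here log2 signals of spots of 1 probe were averaged, and the array's 75th percentile over non-control spots was subtracted. A probe entered when 5 or more of the 18 arrays had it well above background, and the highest-mean probe stood for its gene. Names were updated through RefSeq accessions and symbols, and 6558 of 41174 probes had no gene name. Probe positions are those of the files (mm7) and could not be checked, so they identify probes only. Their number, 1 array per mouse, limits the precision.

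A linear model with dose and kit was fitted to all 18 arrays and 13670 genes with limma 3.58.1 in R 4.3.3 (statmod 1.5.0, the data.table package, version 1.17.8), with 2-sided tests and Benjamini-Hochberg adjustment. Errors beside differences are standard errors of this model. The same kind of fit was also run on simulated arrays with noise drawn separately for each gene. The simulated arrays had no slide or brightness effects, so that run does not bear on the calls made here. Named members are the globins, Ahsp, Alas2, Slc4a1, Gata1 and Klf1, every member past the threshold in a dose comparison, the 2 with the smallest p at 8 Gy in each role and the 3 with the smallest p between kits; of each other list, up to 3 genes with the smallest p are named, apart from 2 that are not reported here. Other named genes, such as Urod, Isca1 or Bpgm, complete a count or a role. The members and lists were chosen with earlier results of these data known. Alternatives changed the scaling, background correction, filter, probe rule, blocks, kit term and samples. The same-numbered replicates were not paired: correlations of their deviations from the group means ran from -0.34 to 0.48.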

Additional observations from a re-analysis of the deposited data

Results flagged for a closer look

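Each gene and the members' mean were checked in each dose group for an array far from the rest, and chance alone flags about 1 in 20 groups. Tfrc was far above the other 0 Gy arrays on replicate 3, at 2.18, and so was Sptb, a spectrin chain, at 4.44 on the same array. At 2 Gy replicate 3 was far below the others for Hemgn (2.35), Car2 (6.39) and Bnip3l (8.77). At 8 Gy replicate 1 was far below the others for Nfe2 (5.07). These arrays are also those that were most often the extreme of their dose over the 38 genes. The flags are about as many as chance alone gives over so many genes and dose groups.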

How the results depend on the processing

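At 8 Gy all 19 named members kept their sign in all alternatives run (33 each, 32 for Klf1, which the strictest filter left out), and the median of the 38 genes ran from 0.35 to 1.11. Some values came close to 0, with lows of 0.0077 for Fech, 0.0084 for Ahsp and 0.029 for Slc25a37. Many of these members were named for their 8 Gy result, and the alternatives reuse the same arrays. The kept signs are therefore no independent support. The call of Prdx2 held in 21 of 33, of Tspan33 in 10, of Tal1 and Mkrn1 in 9, of Nfe2 in 8 and of E2f2 in 7. The number of called members at 8 Gy, 6, became 0 with quantile normalization, normexp with quantile normalization, the deposited series table, slide or scan day as a fixed block, RiboPure arrays alone, array brightness as a covariate or the replicate number as a block (replicate block, where 257 of all genes were called against 1615). It was 1 with no filter on dim probes or slide as a random block, 2 with no kit term and 12 of 34 for probes well above background on all 18 arrays, where fewer genes were tested. All genes that rose in these fits numbered 359, 311, 1075 and 1264, in this order. With no kit term the share of members was smaller than that of all genes. All genes called at 8 Gy numbered 1134, 1321 and 1137 with quantile normalization, normexp with quantile normalization and the deposited series table, and 585, 612, 287, 257 and 0 with no filter, slide as a random block, RiboPure alone, the replicate block and array brightness. Leaving out 1 array gave 0 to 14 members at 8 Gy, 0 to 1 at 2 Gy and 0 to 2 between kits. The kit count of 1 became 2 with quantile normalization, normexp with quantile normalization, the deposited series table and the strict filter, and 0 with no filter, slide as a random block, the replicate block or arrays centred on their medians. Without a filter the median of all genes was 0.27 at 8 Gy and 0.36 at 2 Gy. Leaving out 0 Gy replicate 4 and 2 Gy replicate 3 together was chosen after seeing the data.

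Among the named members, the sign turned at 2 Gy alone, where no member was called. Over all members tested, 33 to 38 were above 0 at 8 Gy across the alternatives. The strict filter tested 34 members, so its count is not out of 38. With quantile normalization, normexp with quantile and the deposited table in this order, Hba-a1 read -0.068, -0.043 and -0.089, Ahsp -0.29, -0.26 and -0.29, Slc25a37 -0.13, -0.091 and -0.15, Slc4a1 -0.27 each time, and Mkrn1 -0.054, -0.0121 and -0.068. Prdx2 read -0.033 and -0.038 in the first and the last. With brightness Ahsp read -0.42, Slc4a1 -0.25 and Add2 -0.091. Ahsp read -0.054 in RiboPure arrays alone and -0.17 with the replicate block. With 1 array left out, Ahsp ran from -0.21 to 0.35, Slc4a1 from -0.060 to 0.44 and Add2 from -0.16 to 0.57. The cause of these changes was not tested. Fits with slide or scan day as a fixed block, without a kit term or of RiboPure arrays alone give no kit value. Signal near background limits Xk and, on single arrays, Klf1, Ermap and Icam4.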
